A study of Mus musculus with 8 samples.

Results

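The nuclear genes of the respiratory chain, which make the subunits of complexes I to V that are coded outside the mitochondrial genome, were followed in the small intestine of suckling mice given arsenic. They were taken by gene symbol: every symbol that begins with Nduf and a, b, c, s or v, the 4 succinate dehydrogenase genes Sdha to Sdhd, the symbols that begin with Uqcr, with Cox and a digit of 4 to 8 or with Atp5, and the genes Cyc1 and Cycs. The rule found 94 of the 24411 genes in the deposited table, of which 89 passed a filter on low counts and could be tested among 15298 genes. Symbols, not measured values, set the rule, so it also takes in the assembly factors Ndufaf1 to Ndufaf7, the related factors Cox7a2l, Atp5s and Atp5sl, and isoforms known mainly from muscle, testis or hypoxic cells. Of the 5 members without a test, Ndufs5, Cox7b2 and Cox8c had no count in any library, and Cox6a2 and Cox8b had at most 15 counts in a library. Ndufs5 is a regular subunit of complex I, and 31.1% of the 50-base stretches of its longest coding transcript also occur in other genes' transcripts. Atp5l, with a larger share of 68.5%, had counts in every library, and why Ndufs5 had none was not tested.

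The arsenic group were hUGT1 mice given inorganic arsenic at 10 mg/kg, and the vehicle group were hUGT1 mice given vehicle, with a labelled time of 24 h for both. All were 14 days old and all carried the humanised UGT1 locus, which codes for enzymes that attach glucuronic acid to bilirubin and many drugs, so no mouse without this transgene entered the comparison. Each of the 4 libraries of a group held RNA of the small intestine from 3 of its 12 mice, so p-values measure the spread between pools of mice and not between single animals. The labels give neither the route, nor the vehicle, nor the sex of the pooled mice.

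The respiratory chain sits in the inner mitochondrial membrane. Complex I passes electrons from NADH, and complex II from succinate, to ubiquinone; complex III hands them to cytochrome c and complex IV to oxygen. Complexes I, III and IV pump protons while doing so, and complex V, the ATP synthase, lets the protons flow back to make ATP. The enterocyte, the absorptive cell of the intestine, relies on this for nutrient uptake and for burning the fat of milk. Most subunits are coded in the nucleus and imported, while a small set, coded by mitochondrial DNA, was not analysed here.

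Library totals were between 22630208 and 29417666 counts in arsenic pools and between 18786779 and 27369320 counts in vehicle pools, and no 2 pools of a group agreed within sampling noise. The 6 enterocyte markers of the list used here (Vil1, Fabp2, Krt20, Alpi, Epcam and Cdh1) summed to between 10250 and 11697 CPM (counts-per-million, TMM-scaled) in arsenic pools and to between 9176 and 10347 CPM in vehicle pools, so the tissue label and its markers go together. Vehicle pool 4 had 0.531 CPM of summed Y-linked genes and arsenic pool 3 had 9.82 CPM of Xist, so the pools differed in their make-up by sex; results without both of these pools are given beside the main count.

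The members were higher in arsenic pools almost throughout. By edgeR's quasi-likelihood test on counts, with Benjamini-Hochberg adjustment over all 15298 tested genes and a threshold of 0.05, 77 of 89 tested members rose, 3 fell and 9 did not pass. Over all tested genes, 32.3% rose and 33% fell. The median log2 fold change of the members, arsenic over vehicle, was 0.39, with an interquartile range of 0.25 to 0.52, against a median of -0.03 over all tested genes. Members are abundant, and among the 5491 genes that averaged 40 CPM or more the background was nearer: 46% of these rose, against 67 of the 72 members at that level. The lowest arsenic pool lay above the highest vehicle pool for 76 members, a pattern held by 30.1% of all tested genes, and the reverse was seen for 2 members and for 29.3% of all tested genes. As these are bulk samples, more RNA per cell and more cells of a kind rich in mitochondria cannot be told apart.

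Most changes were moderate. Of the 89 tested members, 13 were called higher by at least 1.5-fold, where 9.14% of all tested genes were. Among those that averaged 40 CPM or more, 10 of 72 members and 593 of 5491 tested genes were. Of the 89 tested members 2, Ndufaf4 and Cycs, rose by at least 2-fold, and 341 of the 15298 tested genes did, which is a like share. A test against a change of 1.2-fold kept 50 members as higher and 0 as lower, where 17.9% of all tested genes were higher. Without vehicle pool 4 and arsenic pool 3 together, 76 members rose and 3 fell. In the authors' deposited table, 77 of the 91 members with an adjusted p were called higher and 2 lower, where 26.9% of all genes with an adjusted p were higher and 25% lower.

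**Figure D1:**
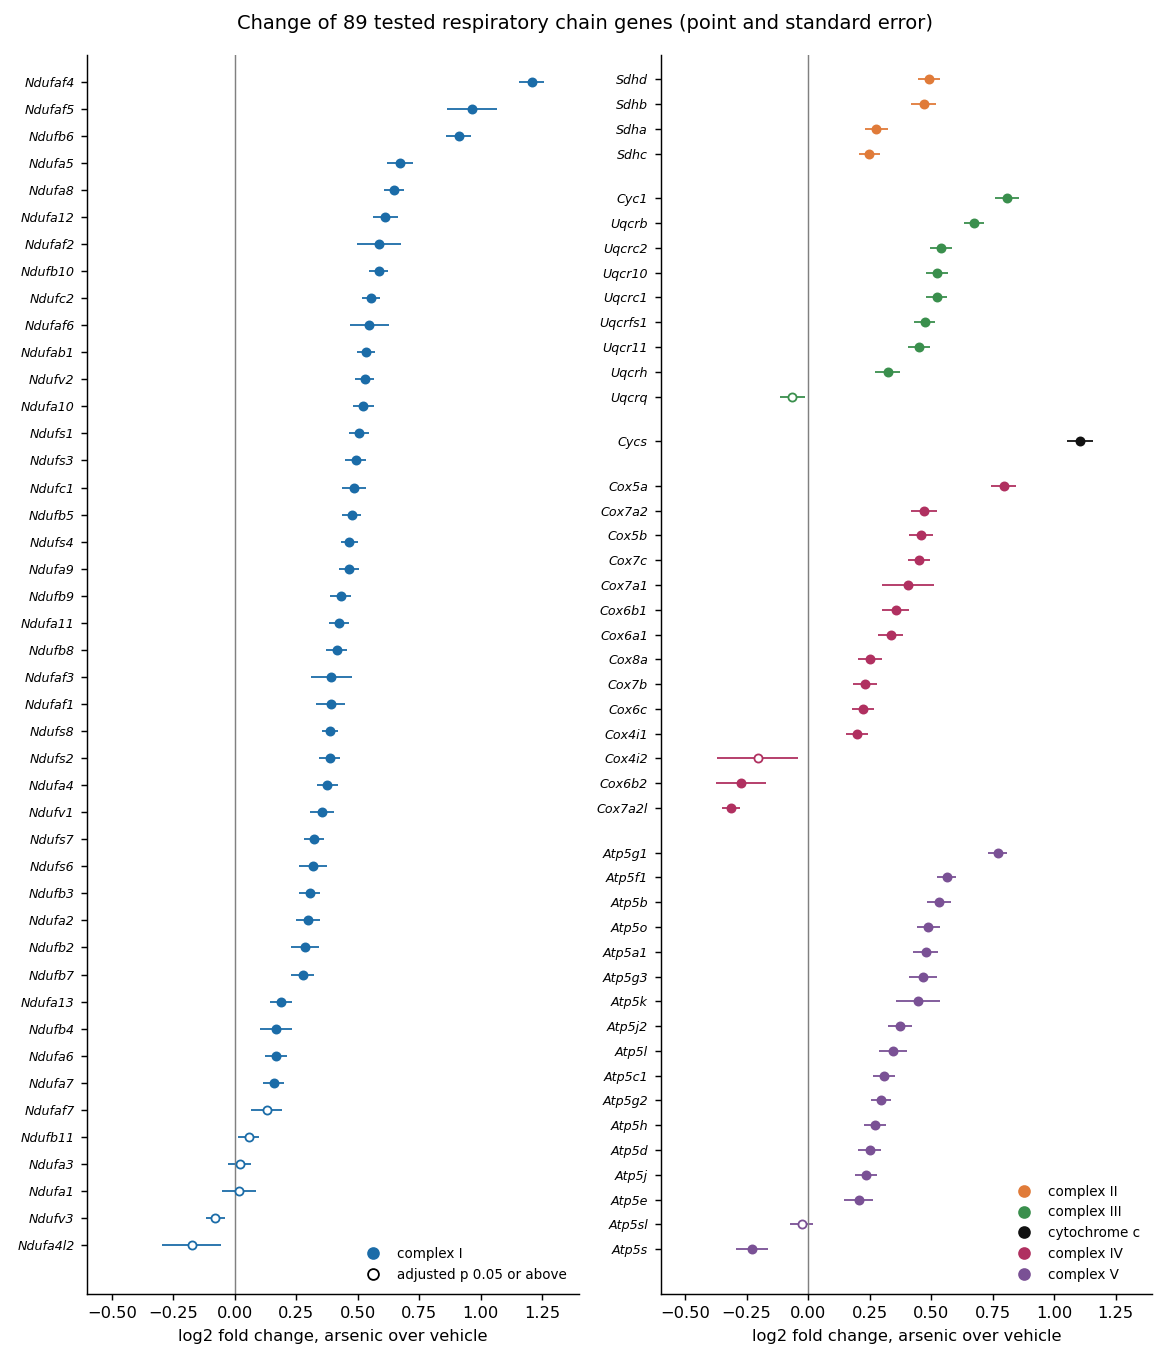
Log2 fold change, arsenic over vehicle, of each tested member (points) with its standard error (lines), ordered by size within each complex; open points had an adjusted p of 0.05 or above. Nearly all points lie right of 0, with Ndufaf4 (1.21) and Cycs (1.11) farthest out and Cox7a2l (-0.31) lowest.

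Promoters of 5 members are shown. Cycs and Ndufaf4 rose most, Cox5a and Sdhd rose most in complexes IV and II, and Cox7a2l fell most. Sdhd, at a log2 fold change of 0.49, lies within the interquartile range of the members. Atp5g1, which rose most in complex V, is not shown, and its promoter held none of the words searched. Cyc1, which rose most in complex III, was matched to no RefSeq promoter. Each runs 5′ to 3′ on the gene's strand over 300 bases, from 250 before the start to 50 from the start onwards, taken from RefSeq on GRCm38.p6. Capitals mark matches to the words GCATGCGC (nuclear respiratory factor 1, NRF1), TGACGTCA (the cyclic AMP response element), TCAAGGTCA (oestrogen-related receptors) and TGACNNNGC (the antioxidant response element), searched on both strands together with CCGGAAGT (ETS factors) and AAGATGGCG (YY1). The Cycs window is chr6:50566520-50566819 (minus strand), the Ndufaf4 window chr4:24897833-24898132 (plus strand), the Cox5a window chr9:57520982-57521281 (plus strand), the Sdhd window chr9:50603800-50604099 (minus strand) and the Cox7a2l window chr17:83514284-83514583 (minus strand).
Cycs: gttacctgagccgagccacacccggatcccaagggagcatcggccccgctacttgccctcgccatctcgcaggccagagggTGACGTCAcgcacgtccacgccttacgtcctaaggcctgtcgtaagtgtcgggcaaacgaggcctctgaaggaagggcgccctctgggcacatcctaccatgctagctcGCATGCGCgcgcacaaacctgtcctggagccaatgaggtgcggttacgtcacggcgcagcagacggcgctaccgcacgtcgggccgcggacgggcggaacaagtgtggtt
Ndufaf4: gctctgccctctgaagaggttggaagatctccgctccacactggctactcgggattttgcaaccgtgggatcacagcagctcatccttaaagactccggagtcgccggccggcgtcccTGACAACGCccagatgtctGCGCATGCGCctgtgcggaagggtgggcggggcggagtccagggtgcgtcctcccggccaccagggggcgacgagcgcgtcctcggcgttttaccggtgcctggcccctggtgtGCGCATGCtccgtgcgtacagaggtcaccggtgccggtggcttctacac
Cox5a: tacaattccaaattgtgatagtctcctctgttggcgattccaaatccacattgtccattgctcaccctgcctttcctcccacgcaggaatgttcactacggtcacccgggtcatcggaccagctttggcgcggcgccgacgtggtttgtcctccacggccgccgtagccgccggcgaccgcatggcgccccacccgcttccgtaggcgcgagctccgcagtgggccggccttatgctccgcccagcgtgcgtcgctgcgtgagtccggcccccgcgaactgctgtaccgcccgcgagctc
Sdhd: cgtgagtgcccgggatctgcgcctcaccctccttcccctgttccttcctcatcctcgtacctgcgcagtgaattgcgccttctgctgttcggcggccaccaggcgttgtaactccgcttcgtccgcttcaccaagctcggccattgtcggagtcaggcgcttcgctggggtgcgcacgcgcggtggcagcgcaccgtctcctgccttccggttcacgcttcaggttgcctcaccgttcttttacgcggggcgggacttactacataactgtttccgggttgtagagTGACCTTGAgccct
Cox7a2l: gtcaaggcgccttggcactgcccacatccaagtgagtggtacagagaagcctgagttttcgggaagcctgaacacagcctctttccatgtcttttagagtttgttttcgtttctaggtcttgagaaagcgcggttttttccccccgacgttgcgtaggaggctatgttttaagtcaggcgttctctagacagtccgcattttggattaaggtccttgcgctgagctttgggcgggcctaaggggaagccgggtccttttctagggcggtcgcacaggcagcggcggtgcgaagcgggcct
The Cycs window holds the NRF1 word 60 bases before the start and the cyclic AMP word 169 bases before it. The Ndufaf4 window holds the NRF1 word in a palindrome at 113 and 111 bases before the start, where the matches overlap, and again at base 2 after it. It also holds the antioxidant response word 132 bases before the start. The Sdhd window holds the oestrogen-related receptor word at base 37, and those of Cox5a and Cox7a2l hold none of the words searched. A match describes letters, not a bound site. In GENCODE M21 on mm10 the genes themselves lie at these places: Cycs (ENSMUSG00000063694) at chr6:50562563-50566538 (minus strand), Ndufaf4 (ENSMUSG00000028261) at chr4:24898083-24905001 (plus strand), Cox5a (ENSMUSG00000000088) at chr9:57521274-57532426 (plus strand), Sdhd (ENSMUSG00000000171) at chr9:50596357-50603812 (minus strand) and Cox7a2l (ENSMUSG00000024248) at chr17:83501918-83517330 (minus strand). For Cox7a2l the RefSeq start lies inside this span, and the sequence before the outer start was not searched.

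Of the 94 members, 77 had a promoter in the RefSeq table. The NRF1 word stood in 13 of these, or 16.9%, against 3.05% of all 27025 genes with a promoter there. That background takes in genes not tested here, and no share was matched for expression or for GC content. The YY1 word stood in 10.4% of members against 1.64% of all genes, the cyclic AMP word in 6.49% against 2.03%, the ETS word in 6.49% against 4.31%, and the oestrogen-related receptor word in 2.6%, or 2 members, against 0.466%. The antioxidant response word was as common in members, at 14.3%, as in all genes, at 14%. All 13 members with the NRF1 word rose, with a median log2 fold change of 0.45 and a range of 0.17 to 1.21, and 52 of the 61 tested members without it rose, with a median of 0.39. The medians with and without the word were 0.46 and 0.38 for the antioxidant response word, 0.47 and 0.39 for the cyclic AMP word and 0.48 and 0.39 for the oestrogen-related receptor word. They ran the other way for the ETS word, at 0.32 with it and 0.40 without it, and for the YY1 word, at 0.35 with it and 0.41 without it. None of these differences was tested.

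Complex I had 45 members, of which 44 were tested. Of these, 38 rose, 0 fell and 6 did not pass, with a median log2 fold change of 0.40. Over all tested genes 32.3% rose and 33% fell, and 46% rose among those that averaged 40 CPM or more. The rise ran through the parts of complex I. All 7 core subunits coded in the nucleus rose, with a median of 0.39, as did all 8 members of the Q module, which passes electrons to ubiquinone, also with a median of 0.39, and 7 of 8 members of the N module, which takes them from NADH, with a median of 0.41. Ndufs1, an iron-sulphur core subunit, had 227, 237, 219.9 and 236 CPM in the 4 arsenic pools, against 162, 172, 157 and 156 CPM in the 4 vehicle pools. Ndufv1, which binds NADH, had 179.9, 186, 172 and 188 CPM in arsenic pools, against 135, 153, 133 and 147 CPM in vehicle pools. In both genes every arsenic pool was above every vehicle pool. The log2 fold change was 0.51 ± 0.04 (SE, adjusted p = 6.19e-08) for Ndufs1 and 0.35 ± 0.05 (SE, adjusted p = 1.42e-05) for Ndufv1.

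Among the accessory subunits, which surround the core, Ndufb6 in the membrane arm changed most. It had 64.0, 60.6, 60.5 and 60.1 CPM in arsenic pools, against 32.7, 36.0, 30.2 and 31.3 CPM in vehicle pools, with groups far apart and a log2 fold change of 0.91 ± 0.05 (SE, adjusted p = 8.64e-10), or 1.88-fold. The accessory subunits Ndufa5, Ndufa8 and Ndufa12 rose 1.59-, 1.57- and 1.53-fold. At the other end, Ndufb11, Ndufa1, Ndufa3 and Ndufv3 did not pass. Ndufa1 had 31.7, 32.7, 33.2 and 34.0 CPM in arsenic pools, against 30.1, 36.5, 28.2 and 34.9 CPM in vehicle pools, so the arsenic values lay inside the vehicle range (adjusted p = 0.836). Its fitted sign, 0.02 on the log2 scale, turned negative with upper-quartile scaling and without vehicle pool 1 or 3. Ndufv3, of the NADH-binding module, had 67.1, 67.2, 65.6 and 66.8 CPM in arsenic pools, against 70.2, 73.2, 66.1 and 71.9 CPM in vehicle pools, which overlap (log2 fold change -0.08, adjusted p = 0.0807). It was called lower, with an adjusted p of 0.0329, without vehicle pool 3, and with upper-quartile scaling (adjusted p = 0.0204). Ndufb11 was called higher without vehicle pool 2 (adjusted p = 0.0483). Of the 3 X-linked members, Cox7b rose and Ndufa1 and Ndufb11 did not pass.

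The weakest call in complex I was Ndufb4, an accessory subunit of the membrane arm, at 17.0 ± 0.265 CPM in arsenic pools and 15.04 ± 1.32 CPM in vehicle pools (SD, n = 4 each) and a log2 fold change of 0.17 (adjusted p = 0.0341). It did not pass with upper-quartile scaling, without arsenic pool 1, 2 or 3, without vehicle pool 1 or 3, or without vehicle pool 4 and arsenic pool 3 together, where the adjusted p ran from 0.0576 to 0.0755.

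The assembly factors Ndufaf1 to Ndufaf7 help build complex I and do not stay in it. They are members by symbol, and 6 of 7 rose, where 32.3% of all tested genes rose. The median log2 fold change of the 7 was 0.55, with a range of 0.13 to 1.21. Ndufaf4, whose promoter is shown above, had 53.3, 52.9, 57.1 and 53.3 CPM in arsenic pools, against 24.8, 24.5, 21.9 and 22.3 CPM in vehicle pools. The groups were far apart, with no vehicle pool near the lowest arsenic pool. Its log2 fold change, 1.21 ± 0.05 (SE, adjusted p = 4.78e-11), was the largest of the 89 tested members. Ndufaf5, which modifies a core subunit, had 12.0 ± 1.08 CPM in arsenic pools and 6.09 ± 0.860 CPM in vehicle pools (SD, n = 4 each) and a log2 fold change of 0.96 ± 0.10 (SE, adjusted p = 7.94e-07). Ndufaf7 was the exception, with a log2 fold change of 0.13 and an adjusted p of 0.0789, although its pools did not overlap between groups; without vehicle pool 1 it passed (adjusted p = 0.0392).

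**Figure D2:**
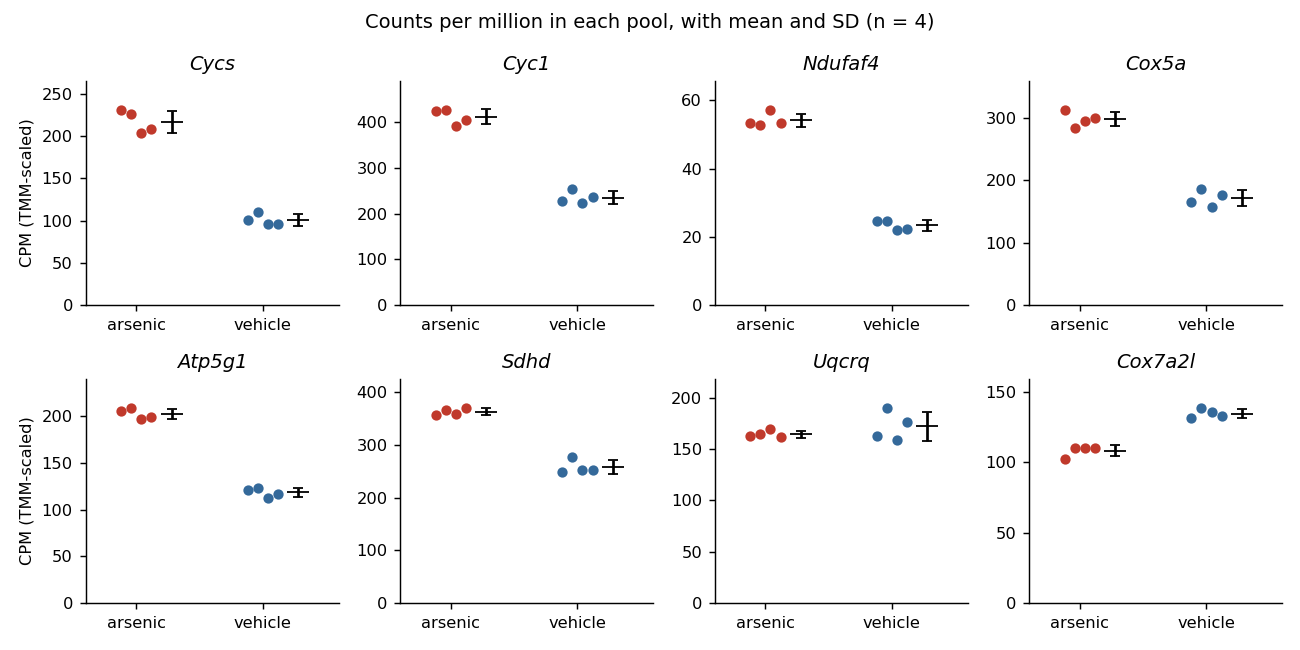
CPM in each pool of 3 mice (points) for 8 members, with mean and SD (n = 4) beside them; arsenic pools are left and vehicle pools right, and each axis starts at 0. Cycs, Cyc1, Ndufaf4, Cox5a, Atp5g1 and Sdhd separate upwards, Cox7a2l separates downwards, and Uqcrq overlaps.

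Complex II, succinate dehydrogenase, belongs to both the citric acid cycle and the chain, and all of its 4 subunits rose. By comparison, 32.3% of all tested genes rose, and 46% of those that averaged 40 CPM or more. Sdha, which binds FAD and oxidises succinate, had 609, 636, 586 and 648 CPM in arsenic pools, against 490.4, 539, 503 and 515 CPM in vehicle pools. Sdhb, the iron-sulphur subunit, had 256, 257, 245 and 257 CPM in arsenic pools, against 170.3, 201, 175 and 187 CPM in vehicle pools. Sdhc and Sdhd anchor the enzyme in the membrane and bind ubiquinone. Sdhc had 232, 237, 224 and 237 CPM in arsenic pools, against 184, 208, 188 and 201 CPM in vehicle pools. Sdhd had 357, 367, 359 and 371 CPM in arsenic pools, against 249, 278, 253 and 253 CPM in vehicle pools. No vehicle pool reached the lowest arsenic pool in any of the 4 genes. The log2 fold changes fell into a larger pair, Sdhd at 0.49 ± 0.04 (SE, adjusted p = 1.22e-07) and Sdhb at 0.47 ± 0.05 (SE, adjusted p = 8.13e-07), and a smaller pair, Sdha at 0.28 ± 0.05 (SE, adjusted p = 0.000116) and Sdhc at 0.25 ± 0.04 (SE, adjusted p = 0.000148). Sdha and Sdhc were not called against a change of 1.2-fold.

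In complex III, 8 of 9 members rose, where 32.3% of all tested genes and 46% of those at 40 CPM or more rose. The median log2 fold change of the complex was 0.52. Cyc1, cytochrome c1, which hands electrons to cytochrome c, had 425, 426, 393 and 405 CPM in arsenic pools, against 228, 254, 223 and 236 CPM in vehicle pools. Uqcrfs1, the Rieske iron-sulphur protein, had 270.3, 268, 255 and 271 CPM in arsenic pools, against 181, 203, 192 and 189.7 CPM in vehicle pools. Neither gene's groups overlapped. The log2 fold change was 0.81 ± 0.05 (SE, adjusted p = 2.14e-09) for Cyc1 and 0.47 ± 0.04 (SE, adjusted p = 1.54e-07) for Uqcrfs1. The core proteins Uqcrc1 and Uqcrc2 rose by 0.52 and 0.54 on the log2 scale, and the small subunits Uqcrb, Uqcr10, Uqcr11 and Uqcrh by 0.67, 0.52, 0.45 and 0.32. Uqcrq, a small subunit of the same complex, stood apart. It had 163, 165, 169 and 162 CPM in arsenic pools, against 163, 190.3, 159 and 177 CPM in vehicle pools. Its arsenic pools lay within the vehicle range, and the log2 fold change was -0.06 ± 0.05 (SE, adjusted p = 0.276).

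Cycs, the somatic cytochrome c, carries electrons from complex III to complex IV and also takes part in apoptosis when released from mitochondria. It had 231, 226, 204 and 208 CPM in arsenic pools, against 100.3, 111, 95.6 and 96.4 CPM in vehicle pools, with no overlap. The log2 fold change was 1.11 ± 0.05 (SE, adjusted p = 1.93e-10), or 2.15-fold, and the authors' deposited table gives 1.12. Of the 50-base stretches of its longest coding transcript, 28.2% also occur in transcripts of 43 other genes. Reads could thus be shared with copies, and the level of Cycs is uncertain to that extent.

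Complex IV, cytochrome c oxidase, had 18 members, of which 14 were tested. Of these, 11 rose, 2 fell and 1 did not pass, with a median log2 fold change of 0.29. Over all tested genes 32.3% rose and 33% fell, and 46% rose among those at 40 CPM or more. The 10 standard subunits tested, a class set after the values were seen, all rose. Cox5a, a subunit on the matrix side, had 312, 284, 295 and 299 CPM in arsenic pools, against 165, 186, 158 and 176 CPM in vehicle pools. Cox4i1, the common form of subunit 4, had 443, 453, 460.1 and 478 CPM in arsenic pools, against 387, 420.4, 389 and 403 CPM in vehicle pools. Both genes separated, but by different amounts. Cox5a changed by 0.80 ± 0.05 on the log2 scale (SE, adjusted p = 4.34e-09), and Cox4i1 by 0.20 ± 0.04 (SE, adjusted p = 0.00116). The other standard subunits lay between, with Cox7a2 at 0.47, Cox5b at 0.46, Cox7c at 0.45, Cox6b1 at 0.36, Cox6a1 at 0.34, Cox8a at 0.25, Cox7b at 0.23 and Cox6c at 0.22.

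Cox7a2l, which helps complexes III and IV join into supercomplexes, ran against the rest. It had 102, 110.0, 111 and 111 CPM in arsenic pools, against 131, 139, 136 and 133 CPM in vehicle pools. Every arsenic pool was below every vehicle pool, and the log2 fold change was -0.31 ± 0.04 (SE, adjusted p = 2.73e-06). The authors' deposited table gives -0.30. Of its 50-base stretches 17.7% occur in another gene's transcripts.

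Isoforms of complex IV and complex I that are known mainly from other tissues were low and mixed in direction. Cox4i2, the subunit 4 form of lung and hypoxic cells, had 1.86, 1.87, 2.29 and 2.05 CPM in arsenic pools, against 2.12, 3.03, 1.86 and 2.22 CPM in vehicle pools. Ndufa4l2, a hypoxia-induced relative of Ndufa4, had 3.86, 4.46, 4.91 and 4.42 CPM in arsenic pools, against 5.54, 4.22, 4.53 and 5.64 CPM in vehicle pools. Both overlapped between groups and did not pass, with adjusted p = 0.287 for Cox4i2 and 0.219 for Ndufa4l2. Cox7a1, the heart and skeletal muscle form of subunit 7a, had 10.4, 10.9, 9.69 and 11.8 CPM in arsenic pools, against 7.22, 9.93, 7.62 and 7.24 CPM in vehicle pools. Cox6b2, a testis form of subunit 6b, had 4.86, 4.97, 5.67 and 4.15 CPM in arsenic pools, against 5.94, 6.09, 6.23 and 5.64 CPM in vehicle pools. The groups overlapped in both genes, though Cox7a1 was called higher (0.40 ± 0.11, SE, adjusted p = 0.00359) and Cox6b2 lower (-0.27 ± 0.10, SE, adjusted p = 0.0295). The call on Cox6b2 was lost with DESeq2 (adjusted p = 0.0769), with no filter on low counts (0.0519), and without arsenic pool 1, 2 or 4 or vehicle pool 1, 2 or 3, where it ran from 0.0511 to 0.109.

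The isoforms were also set against their common partners within each pool, as the log2 ratio of CPM with 0.5 CPM added. Ndufa4, counted here under complex I by its symbol although its protein is now placed in complex IV, had 188, 188, 184 and 198 CPM in arsenic pools, against 138, 156, 142 and 149 CPM in vehicle pools. Cox6b1, the common form of subunit 6b, had 240.0, 248, 238 and 231 CPM in arsenic pools, against 178, 206, 168 and 196 CPM in vehicle pools. Cox7a2, the form of subunit 7a in most tissues, had 134, 132, 126 and 124 CPM in arsenic pools, against 92.0, 102, 83.1 and 95.3 CPM in vehicle pools. All 3 partners rose without overlap. The ratio of Cox6b2 to Cox6b1 was -5.48 ± 0.15 in arsenic pools and -4.85 ± 0.16 in vehicle pools (SD, n = 4 each), a difference of -0.62. Ndufa4l2 to Ndufa4 differed by -0.53 and Cox4i2 to Cox4i1 by -0.34. Relative to their partners, all 3 isoforms were thus lower in arsenic pools. These ratios take in the rise of Cox4i1, Cox6b1 and Ndufa4, already called in the same pools. Cox4i2 and Ndufa4l2 did not pass by themselves, so their ratios are no separate result on these isoforms. Each of these differences had p = 0.0286 by a two-sided exact permutation test, the smallest that 4 against 4 pools allow, and 0.0357 after adjustment over 5 ratios. The Cox7a1 to Cox7a2 ratio differed by -0.07 (exact permutation p = 0.514). With any 1 arsenic pool left out, the adjusted p was 0.0714 for each of these 3 ratios, and the same held for Cox4i2 without vehicle pool 2.

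Complex V had 17 members, of which 15 rose, 1 fell and 1 did not pass, with a median log2 fold change of 0.35. The background was 32.3% higher and 33% lower over all tested genes, and 46% higher among those at 40 CPM or more. Atp5a1 and Atp5b, the alpha and beta subunits of the catalytic F1 head, were the most abundant members by CPM. Atp5b had 2286, 2319.7, 2136 and 2304 CPM in arsenic pools, against 1508, 1659.6, 1510.5 and 1579 CPM in vehicle pools. Atp5a1 had 1856, 1865, 1709.6 and 1922 CPM in arsenic pools, against 1277, 1384, 1287 and 1331 CPM in vehicle pools. Both genes separated fully. Their log2 fold changes were 0.53 ± 0.05 for Atp5b (SE, adjusted p = 1.87e-07) and 0.48 ± 0.05 for Atp5a1 (SE, adjusted p = 6.96e-07).

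The c subunit, whose ring turns as protons pass, comes from 3 genes that make the same mature protein. Atp5g1 had 206, 209, 197 and 199 CPM in arsenic pools, against 121, 124, 113 and 117 CPM in vehicle pools. Atp5g3 had 531, 539.6, 533 and 554 CPM in arsenic pools, against 367, 437, 361 and 396 CPM in vehicle pools. Both rose with no overlap, Atp5g1 by 0.77 ± 0.04 (SE, adjusted p = 3.33e-10) and Atp5g3 by 0.47 ± 0.06 (SE, adjusted p = 3.54e-06) on the log2 scale. Atp5g2 rose by 0.30 (adjusted p = 1.13e-05). The log2 ratio of Atp5g1 to Atp5g3 was -1.41 ± 0.05 in arsenic pools and -1.71 ± 0.10 in vehicle pools (SD, n = 4 each), a difference of 0.30 with an exact permutation p of 0.0286 and 0.0357 after adjustment over the 5 ratios. With any 1 arsenic pool left out the adjusted value was 0.0714.

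The remaining standard subunits of the synthase rose by between 0.21 for Atp5e and 0.56 for Atp5f1 on the log2 scale. Atp5f1 codes for subunit b of the stalk that holds the head still. Atp5e, the small epsilon subunit of the rotor, overlapped, with 73.2, 73.2, 67.6 and 73.2 CPM in arsenic pools, against 58.0, 68.9, 55.8 and 65.9 CPM in vehicle pools (adjusted p = 0.00675). Atp5s, a factor related to the synthase, was the member that fell. It had 11.04, 11.1, 12.1 and 11.1 CPM in arsenic pools, against 13.4, 13.5, 12.6 and 13.8 CPM in vehicle pools, with all arsenic pools lower, and a log2 fold change of -0.23 ± 0.06 (SE, adjusted p = 0.00606). Atp5sl, which resembles Atp5s in sequence, is named Dmac2 in RefSeq and is counted under complex V only by its symbol here. It overlapped between groups at -0.03 (adjusted p = 0.645), and without vehicle pool 2 its sign was positive.

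**Figure D3:**
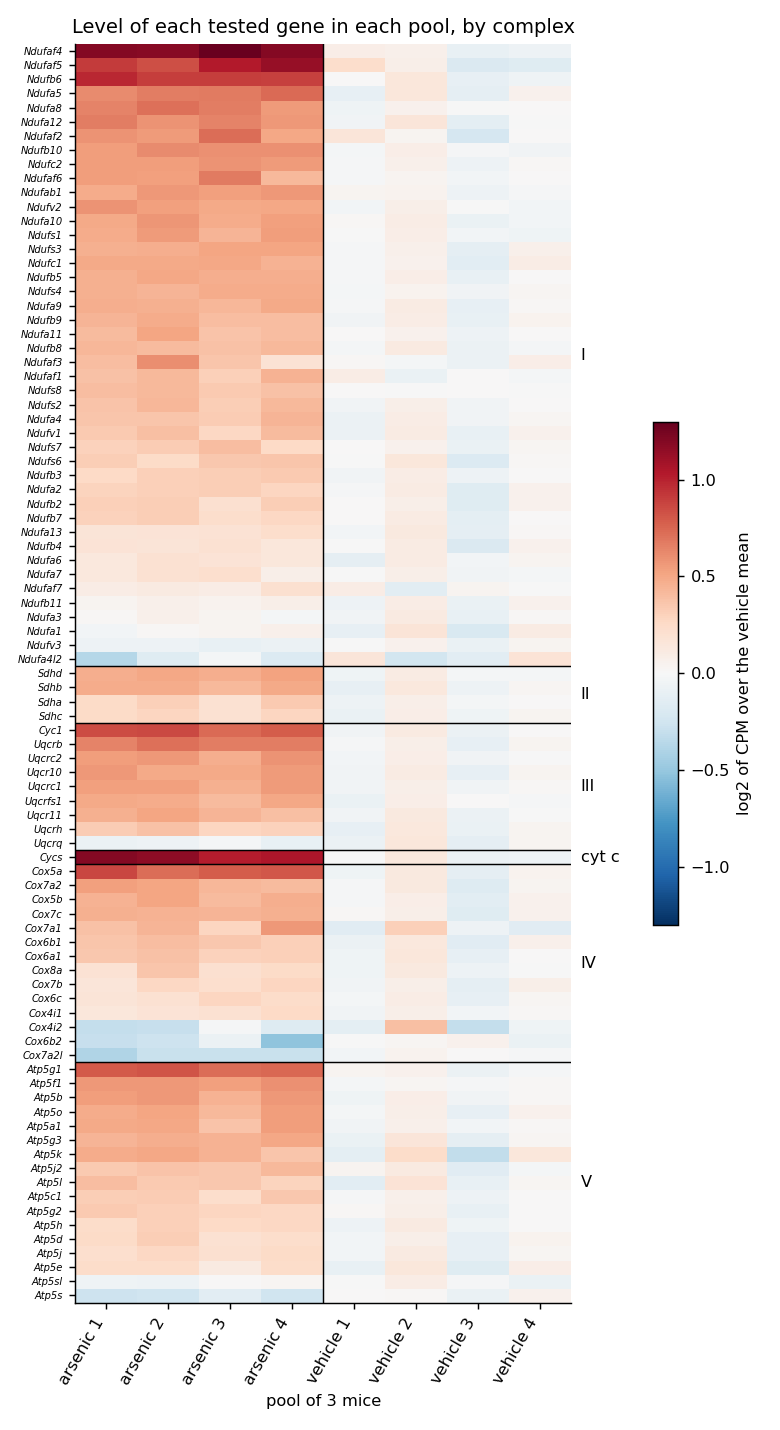
Level of each tested member in each pool, as log2 of CPM over the vehicle mean, with arsenic pools in the 4 left columns and rows grouped by complex. The arsenic columns are red in nearly every row, while vehicle pool 2 is slightly red and vehicle pool 3 slightly blue across most rows.

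Seen across complexes, 70 of the 75 tested standard subunits rose and 0 fell, where 32.3% of all tested genes rose and 33% fell. Most members averaged 40 CPM or more, and among all tested genes at that level 46% rose and 34% fell. The median log2 fold change of the standard subunits was 0.42, with a range of -0.08 to 1.11. The 3 members that fell, Cox7a2l, Atp5s and Cox6b2, are a supercomplex factor, a related factor and a testis isoform. The classes were made after the values were seen and leave these 3 outside the standard subunits, so the 0 is no independent result. The median log2 level of the 89 members over the vehicle mean was 0.40, 0.43, 0.36 and 0.41 in arsenic pools, against -0.03, 0.09, -0.09 and 0.01 in vehicle pools. The vehicle pools thus moved as blocks too, pool 2 up and pool 3 down, but by less than the gap between groups. All 94 members took 1.79% ± 0.02 of counts in arsenic pools and 1.33% ± 0.05 in vehicle pools (SD, n = 4 each), of which complex V took 0.738% ± 0.012 in arsenic pools and 0.538% ± 0.019 in vehicle pools.

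Levels between genes were compared as counts divided by exon length in kilobases. These values were then rescaled to the same total in every library, so they are not CPM per kilobase. On this scale the median standard subunit stood at 309 ± 8.14 in arsenic pools and 255 ± 12.2 in vehicle pools (SD over 4 pool medians). Complex III had a median level of 635 ± 14.0 in arsenic pools and 401 ± 16.9 in vehicle pools, and complex I had 225 ± 6.57 in arsenic pools and 169.8 ± 8.12 in vehicle pools. Subunits of 1 complex did not share 1 level. As means over all pools, complex I ran from 17.8 for Ndufb2 to 468 for Ndufb9. Complex V ran from 40.7 for Atp5l to 1902 for Atp5o. On this scale Ndufb2 was the lowest standard subunit and Atp5o the highest, but these ends depend on the annotated lengths. The Atp5o level rests on an annotated exon length of 530 bases, and 63% of its 50-base stretches occur in other genes' transcripts. The low levels of Ndufb2 and Atp5l rest on exon lengths of 5628 and 6443 bases. The longest coding transcript of Atp5l has only 544 bases, and 68.5% of its 50-base stretches occur in other genes' transcripts. Lengths were summed over all exons of a gene, and with the longest transcript instead the overall median of complex III was 469.8 rather than 518, and Atp5b, at 2632, was highest in place of Atp5o.

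Over the 89 tested members, the log2 fold change had a Spearman rho of 0.21 with mean CPM, 0.17 with transcript length and -0.29 with GC content, as a description of genes that share libraries. Of the 94 members, 20 share over 10% of their 50-base stretches with transcripts of other genes. Among the 19 of these tested, 18 rose and 1 fell, with a median of 0.45, where 32.3% of all tested genes rose and 33% fell. The labels do not say how reads with several matches were counted.

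**Figure D4:**
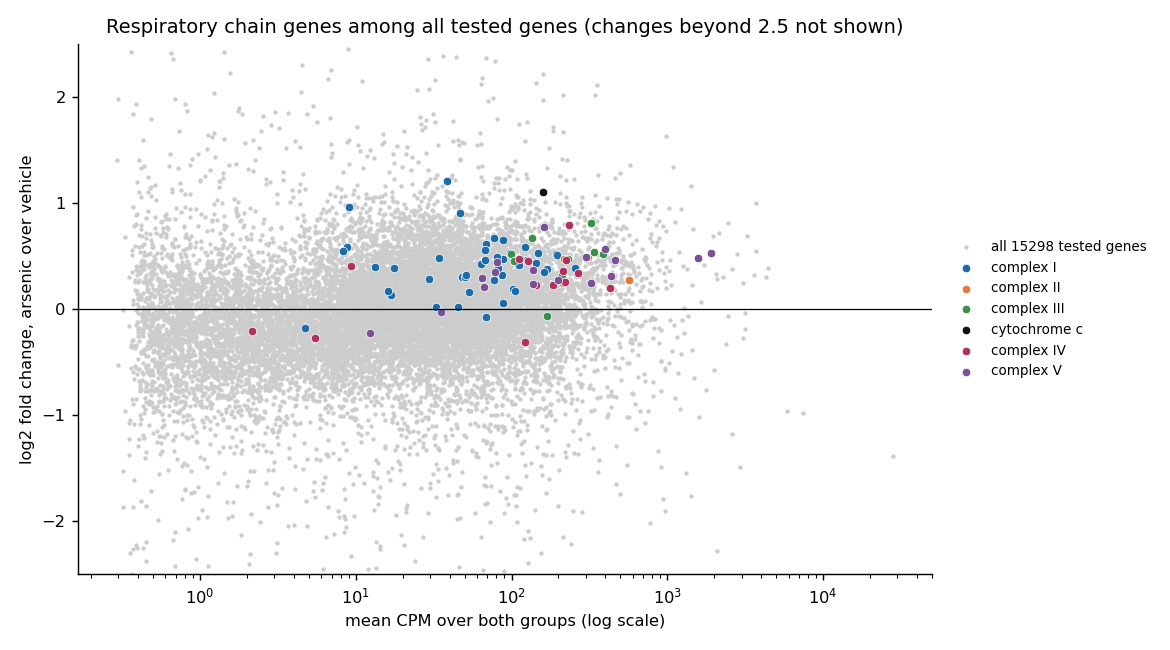
Log2 fold change, arsenic over vehicle, against mean CPM (log scale) for all 15298 tested genes (grey) and the members coloured by complex; changes beyond 2.5 are outside the plot. Most members lie above 0, inside the cloud of all genes and in its right part.

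Genes that build, feed or regulate the chain are not members and were listed by function. Of 8 tested complex I assembly factors with other symbols, 6 rose, with Ecsit at a log2 fold change of 0.60 (adjusted p = 6.91e-08). Assembly factors rose in 1 of 4 genes for complex II, 5 of 6 for complex III, 12 of 18 for complex IV and 3 of 4 for complex V, where 32.3% of all tested genes rose, and differences between these lists were not tested. Coa5, needed for complex IV assembly, had 188 ± 10.2 CPM in arsenic pools and 112 ± 1.81 CPM in vehicle pools (SD, n = 4 each) and a log2 fold change of 0.74 (adjusted p = 9.05e-10). Sdhaf1, which serves the iron-sulphur subunit Sdhb, was the complex II factor that rose, by 0.51 (adjusted p = 1.33e-05).

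Ubiquinone, the carrier that complexes I and II reduce, is made by the coenzyme Q genes. Of these, 10 of 13 rose and 3 fell, where 32.3% of all tested genes rose and 33% fell. Pdss1, which makes its side chain, had 44.2 ± 1.22 CPM in arsenic pools and 21.8 ± 0.721 CPM in vehicle pools (SD, n = 4 each), a log2 fold change of 1.02 (adjusted p = 8.65e-11). The kinase-like Coq8a, listed under its older symbol Adck3, was among those that fell, at -0.60. Of 8 other enzymes that feed electrons to ubiquinone, 6 rose and 2 fell. Gpd2, which takes electrons from glycerol 3-phosphate, changed by 0.72 (adjusted p = 2.85e-08), and Prodh, which takes them from proline, by -0.64 (adjusted p = 1.58e-06).

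Of 13 regulators of mitochondrial genes, 9 rose and 0 fell. The coactivators Pprc1 and Ppargc1a each rose by 0.56 on the log2 scale, with Ppargc1a at 52.1 ± 2.37 CPM in arsenic pools and 35.3 ± 3.24 CPM in vehicle pools (SD, n = 4 each, adjusted p = 1.04e-06). Nrf1, whose word is the one searched in the promoters, changed by 0.15 (adjusted p = 0.012), and Esrra, an oestrogen-related receptor, by 0.08 (adjusted p = 0.0853). Of 7 genes that copy mitochondrial DNA, 2 rose, 2 fell and 3 did not pass, with a median of -0.12; these counts are near the background of 32.3% higher and 33% lower over all tested genes.

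**Figure D5:**
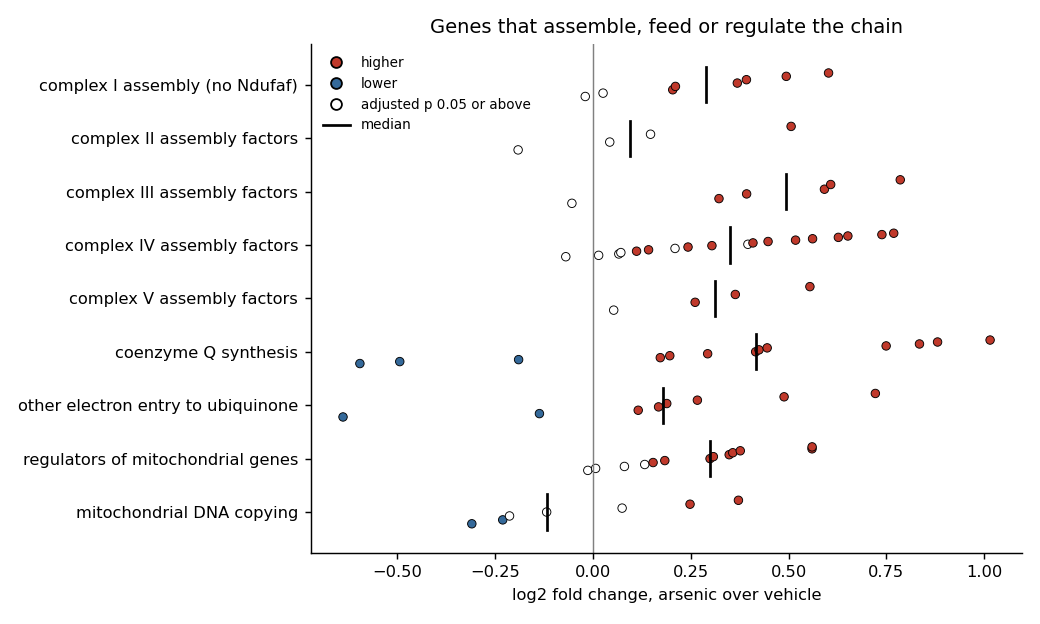
Log2 fold change, arsenic over vehicle, of genes outside the members in 9 functional lists (points), with list medians (bars); red points were called higher, blue lower and open points neither. Medians run from -0.12 for mitochondrial DNA copying to 0.49 for complex III assembly factors.

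Markers of cell types also differed between groups, and their counts stand beside 32.3% of all tested genes that rose and 33% that fell. Of the 6 enterocyte markers 3 rose and 2 fell, with a median log2 fold change of 0.13. All 7 smooth muscle markers rose, with a summed level of 2297 to 2799 CPM in arsenic pools and of 1930 to 2128 CPM in vehicle pools. Of 5 tested skeletal or heart muscle markers 2 rose, and their sum was 17.9 to 19.8 CPM in arsenic pools and 12.2 to 15.7 CPM in vehicle pools. Endothelial markers fell in 4 of 4 genes, with sums of 245 to 262 CPM in arsenic pools and 341 to 375 CPM in vehicle pools, macrophage markers in 3 of 4 and T cell markers in 3 of 3. Summed macrophage markers were at 165 to 198 CPM in arsenic pools and 256 to 272 CPM in vehicle pools, and T cell markers at 7.89 to 9.43 CPM in arsenic pools and 14.4 to 15.1 CPM in vehicle pools. Of 5 pericyte markers 1 rose and 3 fell, and of 4 markers of enteric neurons and glia 1 fell. No adipocyte marker of the 3 tested passed, and the brown fat gene Ucp1 had at most 2 counts in a library. The part of these cell types in the rise of the respiratory chain genes was not tested.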

How the data were processed

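RNA-seq libraries of small intestine from 14-day-old hUGT1 mice were compared, 4 pools of 3 mice given arsenic and 4 given vehicle. The authors deposited raw counts per gene, normalized counts (a signal scaled between libraries), regularized log2 values, and a comparison table with log2 fold changes and p-values. The submitters' processing notes name STAR 2.7.9a, bcl2fastq 2.20, DESeq2 1.34.0 and the mm10 build; no counter, annotation, strand setting or treatment of multiply mapped reads was stated there or in the labels. Per the labels' protocols, the library kit was stranded and selected mRNA. Only the deposited counts entered the tests; the normalized counts and regularized log2 values were not used.

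Genes were filtered with filterByExpr (minimum count 10, minimum total 15), scaled by TMM and tested with edgeR 4.0.16 (glmQLFit and glmQLFTest, R 4.3.3), with Benjamini-Hochberg adjustment over all tested genes and a threshold of 0.05. Standard errors are the log2 fold change over the root of F. Ratios of isoforms (0.5 CPM added) were compared by exact permutation tests over pools. limma 3.58.1 and DESeq2 1.42.0 served as alternatives. The fit code was tested on simulated data with independent genes and far fewer changes, which does not bear on the results given here. Lengths, positions and shared 50-base stretches came from GENCODE M21 (mm10), promoters from RefSeq. The stretches were those of each gene's longest coding transcript. Pools are numbered by accession order, which pairs no samples. Values in every pool are given for the largest called rise and fall of each complex among members with at least 5 CPM. They are also given for a set list of central subunits and for isoform pairs. Genes named from the other functional lists were mostly among those with the smallest p of their list. Some other genes were named for the exception they form. The members and lists were chosen with earlier results of these data known, and the classes of members after their values were seen.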

Additional observations from a re-analysis of the deposited data

Results flagged for a closer look

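Of 64 groups of 4 pools checked, 6 had 1 pool far from the others by Dixon's test, and chance gives about 1 in 20 groups, or 3.2 here. Arsenic pool 3 was the low one for Sdhb, at 245 CPM, and the high one for Ndufaf4, at 57.1 CPM, and for Atp5s, at 12.1 CPM. Arsenic pool 1 was the low one for Cox7a2l, at 102 CPM. Vehicle pool 2 was the high one for Sdhd, at 278 CPM, and for Cox7a1, at 9.93 CPM.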

How the results depend on the processing

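Of 89 tested members, 53 kept their direction and their side of the threshold in all 17 alternative settings, and 36 changed in at least 1, most of them only against a change of 1.2-fold. That test called 50 members higher and 0 lower in all, with 2 higher in complex II, 5 higher and 0 lower in complex IV, and 8 higher and 0 lower in complex V. With upper-quartile scaling complex I had 1 lower member, and DESeq2 and no filter on low counts each left 1 lower member in complex IV. Signs reversed for the log2 change of Ndufa1 (-0.0092 with upper-quartile scaling and -0.027 to 0.095 with 1 pool left out), that of Ndufa3 (-0.0063 with upper-quartile scaling) and that of Atp5sl (-0.041 to 0.019 with 1 pool left out); the cause was not tested. Other scalings moved the median log2 fold change of all tested genes no further than -0.05.

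With 1 pool left out at a time, members called higher ranged from 76 to 78, lower members of complex I from 0 to 1 and of complex IV from 1 to 2, and the median of complex V from 0.30 to 0.43. The ratio differences, each over the partner gene of the same subunit, ranged from -0.41 to -0.25 for Cox4i2, -0.69 to -0.56 for Cox6b2, -0.63 to -0.45 for Ndufa4l2 and 0.26 to 0.34 for Atp5g1.

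Settings chosen after seeing the data took only members with at least 40 CPM, leaving 1 lower in all, 1 lower in complex IV and 0 lower in complex V, or left out members that share over 10% of 50-base stretches, leaving 7 higher and 1 lower in complex IV and 9 higher in complex V by construction. Per length of the longest transcript, median levels were 259 for standard subunits, 209 for complex I, 491 for complex II, 469.8 for complex III, 134 for cytochrome c and 593 for complex IV, against 282, 197, 395, 518, 157 and 497 with all exons. No paired analysis was possible because the labels give no replicate numbers. Members under about 10 counts a library could not be tested.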
